A study of Homo sapiens with 20 samples.

Results

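The sites described here are the STAG1 and CTCF ChIP-seq peaks of M14 cells after STAG2 knockdown (STAG2-KD). They come from 4 of the 16 peak lists of the study, 1 STAG1 list and 1 CTCF list in each of 2 replicates. On chromosomes 1 to 22 and X these lists held 85527 and 104628 STAG1 sites, and 88575 and 115435 CTCF sites, in replicates 1 and 2. Together they made 394165 of the 1599606 sites in all lists. A STAG1 site was called CTCF-bound when it overlapped a CTCF peak of the same replicate by at least 1 bp, and CTCF-free otherwise.

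M14 is an established line from a human melanoma. The cells stably carried a doxycycline-inducible shRNA against STAG2. The labels give 5 days of doxycycline for the STAG2-KD samples of replicate 1 and none for its WT samples. For replicate 2 they name the groups without a treatment protocol. Per the study's methods WT cells carry the same hairpin without induction, so WT means uninduced and not unmodified. The STAG2 lists themselves held 58418 sites in STAG2-KD against 79048 in WT in replicate 1, and 106135 against 118984 in replicate 2, so STAG2 peaks were fewer but not gone. The replicates were extracted and size-selected differently, and no source says that they were separate cultures, so the spread between them may be technical.

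Cohesin is a ring complex that extrudes and holds chromatin loops. SMC1A is part of every such ring, and each ring also carries either STAG1 or STAG2. CTCF is a zinc finger protein that binds an asymmetric DNA motif and stops the ring, mainly when the ring arrives from one side of the motif. Rings also load and pause at active promoters and enhancers, where CTCF need not be present. After loss of STAG2 the rings with STAG1 remain, which is why their position relative to CTCF was examined.

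The strongest sites of the classes differed in sequence. Below are the first 3 CTCF-bound STAG1 sites by summed rank over both replicates, from the hg19 reference, 5′ to 3′ on the strand of the motif, to set the motif beside the CTCF-free sites that follow. Capitals mark a match to a 12-letter form of the CTCF motif core. Of the 10 first sites, 3 held the 11-letter form that is counted further on within 100 bp of the STAG1 summit, 5 held only the 12-letter form, and neither form was found at the others. The site near KCTD15 (chr19:34269095-34269195, plus strand) and the site nearest to TMEM45B (chr11:129620835-129620935, minus strand) were intergenic, and the site near NANOS3 (chr19:13990980-13991080, plus strand) was in an intron.
KCTD15: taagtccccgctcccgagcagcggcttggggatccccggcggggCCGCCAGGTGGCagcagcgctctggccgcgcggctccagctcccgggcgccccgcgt
TMEM45B: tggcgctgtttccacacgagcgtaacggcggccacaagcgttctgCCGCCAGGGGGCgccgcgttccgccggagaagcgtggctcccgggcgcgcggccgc
NANOS3: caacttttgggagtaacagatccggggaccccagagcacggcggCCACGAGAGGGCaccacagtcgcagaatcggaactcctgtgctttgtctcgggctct

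Among the 10 first CTCF-free STAG1 sites, which all lay at promoters, 6 held the letters ACGTCA within 100 bp of the STAG1 summit. ACGTCA is part of the cAMP response element (CRE), which is bound by factors of the CREB and ATF families. It was taken up after the values were seen, because it was the 6-mer with the largest excess at strong CTCF-free promoter sites. The 4 sites of highest rank with this match are shown, with ACGTCA in capitals: CWC25 (chr17:36981616-36981644, minus strand), RBM42 (chr19:36119905-36119933, plus strand), TBL3 (chr16:2022011-2022039, plus strand) and MAPKAPK5 (chr12:112279766-112279794, plus strand).
CWC25: accgagccctgtACGTCAtcgttccgcga
RBM42: ccgaatgtatgACGTCAtgcgccagcgcc
TBL3: cgccggcggggACGTCAcagtggtcgcgc
MAPKAPK5: ccgggcctatgACGTCAttagcgcagcgc

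Fewer sites away from promoters were strong and CTCF-free in both replicates. The pair below, chosen after the values were seen, stood among the 4 such sites of highest rank and held an AP-1 motif, TGANTCA, the element of JUN and FOS factors, in capitals. The first lay in an annotated intron, with CDKAL1 as the nearest coding gene start (chr6:20877867-20877967, plus strand). The second was intergenic, with FAR2 as the nearest (chr12:29022152-29022252, plus strand).
CDKAL1: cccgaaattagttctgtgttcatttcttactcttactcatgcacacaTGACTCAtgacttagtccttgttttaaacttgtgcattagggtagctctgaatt
FAR2: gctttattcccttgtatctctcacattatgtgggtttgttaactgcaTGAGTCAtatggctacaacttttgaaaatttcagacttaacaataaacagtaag

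Most STAG1 sites lay on CTCF. In replicate 1, 63643 STAG1 sites were CTCF-bound and 21884 were CTCF-free, and in replicate 2 the numbers were 78365 and 26263. The CTCF-bound share was 74.4% and 74.9%, a mean of 74.7% ± 0.344 (SD, n = 2). CTCF peaks covered 1.37% and 2.65% of the chromosomes. In the other direction, 71.2% and 67.5% of the CTCF sites had a STAG1 peak, a mean of 69.3% ± 2.67 (SD, n = 2). The reads behind the lists were recovered from fold enrichment and p-value, after peak calling had scaled ChIP and input to each other. These reads numbered 40.2 and 65.1 M for STAG1 and 21.6 and 38.5 M for CTCF. By this measure the STAG1 lists rested on 1.86 and 1.69 times as many reads, and library depth itself was not recovered. A CTCF site under the threshold of its list counts here as absent.

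The classes differed in strength. Strength is given as the percentile of a site in its own list by −log10 p-value, where 100 is the strongest. CTCF-bound STAG1 sites had a median percentile of 62.5 and 62.1, and CTCF-free sites of 19.9 and 21.2. The difference was 41.8 ± 1.28 percentile points (SD, n = 2), larger than the spread between replicates. Median fold enrichment over background was 14.6 for CTCF-bound and 4.37 for CTCF-free sites in replicate 1, and 6.71 and 2.82 in replicate 2. CTCF-free peaks were also narrower, with a median width of 198 bp against 473 bp in replicate 1 and 273 bp against 661 bp in replicate 2.

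The CTCF-bound share rose with every decile of STAG1 strength in replicate 1. It was 32.4% in the weakest decile, 59.4% in the fourth and 99.8% in the strongest. In replicate 2 it was 36.97%, 60.3% and 99.5% in the same deciles, with the last 3 deciles between 99.2% and 99.5%. Promoter sites, with a midpoint within 1 kb of an annotated transcript start, departed from the other sites at the top of the list. None of the 7279 strongest-decile sites outside promoters was CTCF-free in replicate 1, and none of 8732 was in replicate 2. With 3 counts taken as the limit for a count of 0, the shares are up to 0.0412% and 0.0344%. These limits treat sites as independent and cover counting error only. At promoters, 15 of 1274 strongest-decile sites in replicate 1 and 57 of 1731 in replicate 2 were CTCF-free.

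**Figure D1:**
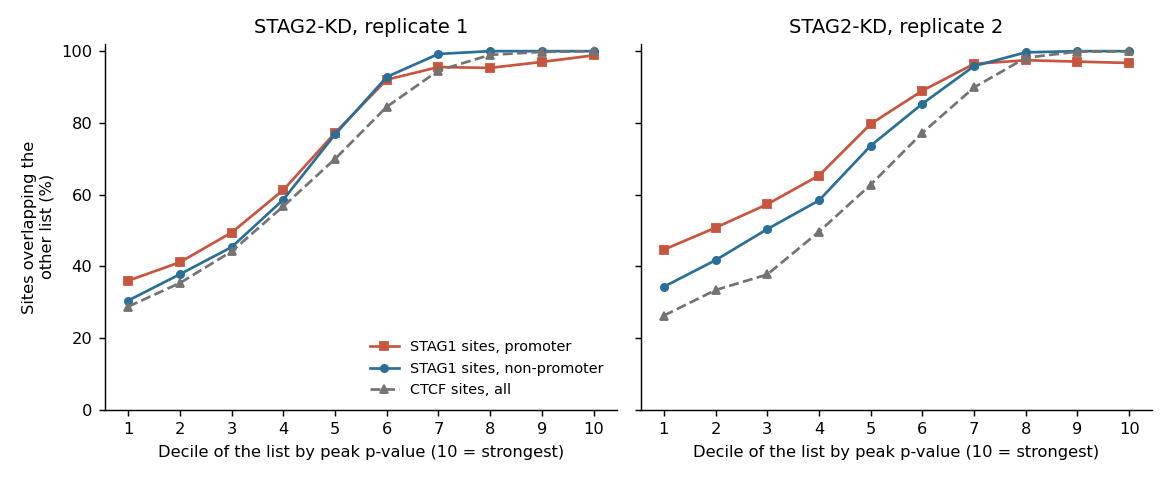
Share of sites (y axis, %) that overlap the other list, by decile of strength within the list (x axis, 10 is strongest), for STAG1 sites at promoters and elsewhere and for all CTCF sites, with 1 panel per replicate. All lines climb from under 50% to near 100%, and in the strongest decile the promoter STAG1 sites stay at 98.8% and 96.7% while the other STAG1 sites reach 100%.

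CTCF strength and STAG1 strength moved together at shared sites. Across CTCF-bound STAG1 sites the rank correlation between the STAG1 percentile and the percentile of the strongest overlapping CTCF peak was 0.778 in replicate 1 and 0.786 in replicate 2. These are descriptions across sites of the same cells and genome, and sites are not independent replicates. Over CTCF peaks above the 80th percentile of their list the median STAG1 percentile was 86.8 and 87.2, and over those up to the 20th it was 28.1 and 28.9. The 10 named CTCF-bound sites were chosen for their STAG1 rank, which placed them above the 99.9th STAG1 percentile in both replicates. In the STAG2-KD CTCF lists they stood above the 96th percentile. The one of lowest rank sum, 17683 bp from the nearest start of KCTD15, had a fold enrichment of 86.5 and 56.3 for STAG1.

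Genomic place did not separate the classes in a stable way. Of CTCF-free STAG1 sites, 31.4% in replicate 1 and 22.7% in replicate 2 lay at promoters, against 22.8% and 23.3% of CTCF-bound sites. The difference was 8.55 percentage points in replicate 1 but −0.552 in replicate 2, and its direction thus differed between replicates. Introns held 40.7% and 47.0% of CTCF-free and 42.1% and 42.5% of CTCF-bound sites. Intergenic regions held 24.5% and 26.5% of CTCF-free sites, below the 30.1% and 29.5% of CTCF-bound sites in both replicates. Exons outside promoters held 3.34% and 3.83% of CTCF-free and 5.01% and 4.75% of CTCF-bound sites. Promoter shares depended on strength. Among STAG1 sites up to the 20th percentile, 37.005% and 29.6% of CTCF-bound and 32.7% and 22.1% of CTCF-free sites were promoters. Above the 80th, all 56 and 110 CTCF-free sites were promoters, against 15.1% and 16.5% of the CTCF-bound ones.

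**Figure D2:**
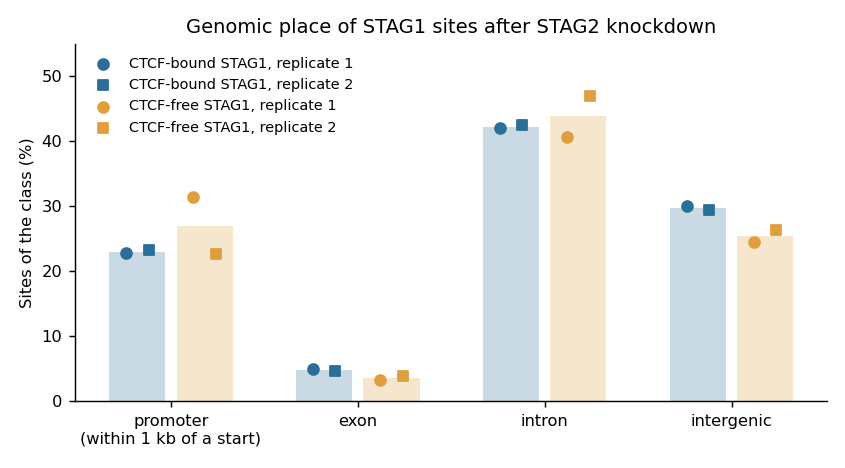
Share of CTCF-bound and CTCF-free STAG1 sites (y axis, %) in each kind of genomic place (x axis), with bars at the mean and 1 point per replicate. The CTCF-free promoter points, 31.4% and 22.7%, lie on both sides of the 23.3% of CTCF-bound sites in replicate 2.

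The X chromosome stood near the top of the range. Over the 22 autosomes the CTCF-bound share of STAG1 sites ran between 71.5% and 79.4% in replicate 1 and between 71.5% and 80.02% in replicate 2. On X it was 81.5% and 79.8%, above every autosome in replicate 1 but within their range in replicate 2.

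The class of a site could differ between replicates, whose STAG1 lists, CTCF lists and thresholds all differ. Of the replicate 1 STAG1 sites, 82247 (96.2%) had a STAG1 peak in replicate 2, and 87.9% of these kept their class. CTCF-bound sites seldom changed, with 61667 bound in both and 85 free in replicate 2. CTCF-free sites often did, with 10645 free in both and 9850 (48.1%) bound in replicate 2. Only 54.0% of the CTCF-free sites of replicate 1 lacked a CTCF peak in all 4 CTCF lists, against 86.0% in replicate 2. Few CTCF-free sites lay within 100 bp of CTCF. Their median gap to the nearest CTCF peak was 4709 bp and 3818 bp, and 3.86% and 3.62% lay within 100 bp of one, just outside the rule. Within 500 bp of a CTCF peak lay 17.1% and 16.2% of them.

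The next comparison was of the CTCF motif. The 11-letter CTCF core, searched on both strands, was within 100 bp of the STAG1 summit at 23.5% and 18.3% of CTCF-bound sites and at 1.93% and 0.826% of CTCF-free sites. The difference was 19.5 ± 2.87 percentage points (SD, n = 2), larger than the spread between replicates. Windows 5 kb away held the motif at 0.734% and 0.725%, and all STAG1 sites at 17.9% and 13.9%. At CTCF-bound sites the share increased with STAG1 strength, from 10.3% and 6.73% up to the 20th percentile to 35.2% and 33.3% above the 80th. At CTCF-free sites it stayed between 0.200% and 2.33% in every band of 20 percentiles.

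STAG1 summits sat to one side of the motif. Over CTCF sites with a STAG1 peak and exactly 1 core motif within 100 bp of the CTCF summit, the STAG1 summit lay a median of 19 bp from the motif centre on the 3′ side in replicate 1 (14711 sites) and 16 bp in replicate 2 (15097 sites). The mean was 17.5 ± 2.12 bp (SD, n = 2). In replicate 1, 81.6% of the summits were on the 3′ side, with quartiles at 7 and 27 bp. In replicate 2, 61.7% were, with quartiles at −20 and 48 bp. The CTCF summits of the same sites were centred, with medians of 1 and −2 bp. The STAG1 offset was 18 and 13 bp for motifs on the plus strand and 20 and 19 bp for those on the minus strand. In WT cells the STAG1 offset was 20 and 16 bp. STAG2 in STAG2-KD cells had offsets of 16 and 12 bp, whereas SMC1A summits lay nearer to the centre, at 1 and 4 bp.

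**Figure D3:**
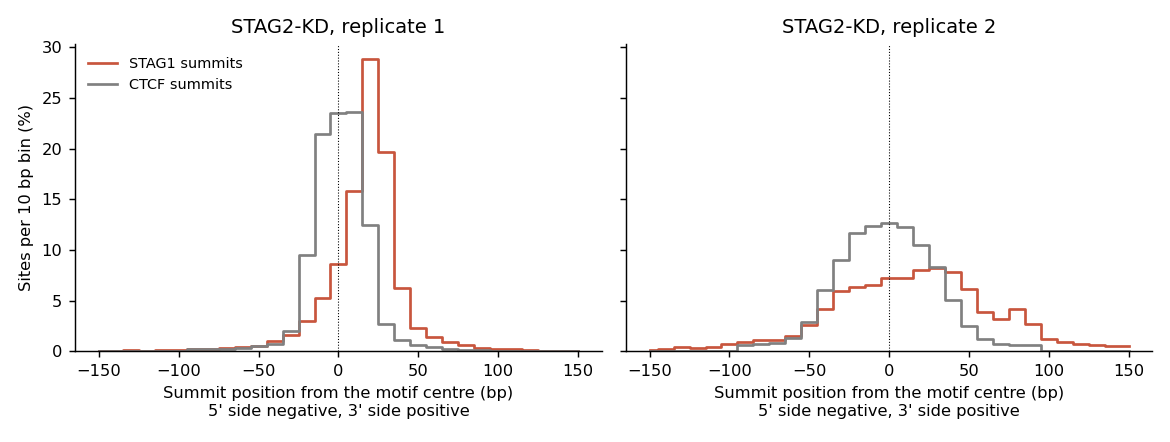
Position of STAG1 and CTCF summits along the CTCF motif (x axis, bp from the motif centre, 3′ side positive) as a share of sites per 10 bp bin (y axis, %), with 1 panel per replicate. STAG1 summits peak on the 3′ side, with medians of 19 and 16 bp, and CTCF summits peak at the centre.

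Other cohesin subunits were then placed on the classes. SMC1A peaks of STAG2-KD cells overlapped 83.3% and 89.3% of CTCF-bound and 58.3% and 75.4% of CTCF-free STAG1 sites, a difference of 19.5 ± 7.89 percentage points (SD, n = 2). The difference varied with strength. Among STAG1 sites up to the 20th percentile, 53.1% and 67.0% of CTCF-bound and 51.6% and 65.6% of CTCF-free sites had SMC1A. Between the 40th and 60th percentile the shares were 75.04% and 86.4% for CTCF-bound and 69.5% and 92.8% for CTCF-free sites, so the order differed between replicates. Between the 60th and 80th percentile they were 95.7% and 98.4% for CTCF-bound and 74.6% and 97.006% for CTCF-free sites, and above the 80th 99.98% and 99.995% against 85.7% and 98.2%. Residual STAG2 peaks overlapped 74.3% and 88.6% of CTCF-bound and 30.8% and 62.8% of CTCF-free sites.

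Strong CTCF-free STAG1 sites were few, and those shared by both replicates were mostly promoters. Strong here means the strongest 40% of a list, a limit set after the deciles were seen. In replicate 1, 208 strong CTCF-free sites lay at promoters and 53 elsewhere, and in replicate 2, 248 and 363. Across both replicates 146 sites were strong and CTCF-free, of which 122 were promoters, 15 intronic and 9 intergenic, and 118 had no CTCF peak in any of the 4 lists. The 122 promoter sites lay a median of 27.5 bp from a transcript start. Over all strong CTCF-free promoter sites of a list the median was 27 bp in replicate 1 and 41.5 bp in replicate 2, against 226 and 211 bp for strong CTCF-bound promoter sites. Their windows were GC-rich, with medians of 65.7% and 61.2%, against 58.2% and 59.2%.

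The 10 named CTCF-free sites were of this kind, each within 119 bp of a coding gene start. The site at CWC25, which encodes a splicing factor, had STAG1 fold enrichments of 76.6 and 24.3 in replicates 1 and 2. The site at RBM42, which encodes an RNA-binding protein, had 77.6 and 25.2. The site at TRMT61B, a mitochondrial tRNA methyltransferase gene, had 71.2 and 26.8. The others, with 47.9 to 57.4 in replicate 1 and 19.1 to 36.96 in replicate 2, were at TBL3, RPS6KB2, MAPKAPK5, EMC3, NUP214, SPTLC1 and POLR3F. RPS6KB2 and MAPKAPK5 encode kinases, NUP214 a nuclear pore protein, SPTLC1 a subunit of the enzyme that starts sphingolipid synthesis and POLR3F a subunit of RNA polymerase III. By the rule that chose them, none of the 10 had a CTCF peak in STAG2-KD cells in either replicate. In WT replicate 2, 4 of them had a weak one, at the 3.31st to 31.5th percentile.

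These promoters were compared with CTCF-bound promoters chosen by the same limit on STAG1. The limit fixes a high STAG1 percentile in both classes, so the comparison is of SMC1A and STAG2 between the classes. Over the 122 sites the median STAG1 percentile was 74.9 in replicate 1 and 89.6 in replicate 2, near the 78.1 and 83.2 of the 5669 promoter sites that were strong and CTCF-bound in both. SMC1A peaks were present at 94 and 116 of the 122, with a median percentile of 37.7 and 58.7, against 83.8 and 90.7 at the CTCF-bound promoters. STAG2 peaks were present at 77 and 106, with a median percentile of 33.9 and 43.98, against 71.6 and 85.6. Values at a pair of the named sites, which were chosen for their STAG1 rank, were as follows. At CWC25 the STAG1 percentile was 99.6 and 97.1 and the SMC1A percentile 31.5 and 60.5. At SPTLC1 STAG1 stood at 88.7 and 98.3 and SMC1A at 15.3 and 52.3. In the WT lists the median STAG1 percentile of the same 122 sites was 77.1 and 91.1. What sets the classes apart in SMC1A was not tested, and no STAG1-depleted library was analysed here.

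**Figure D4:**
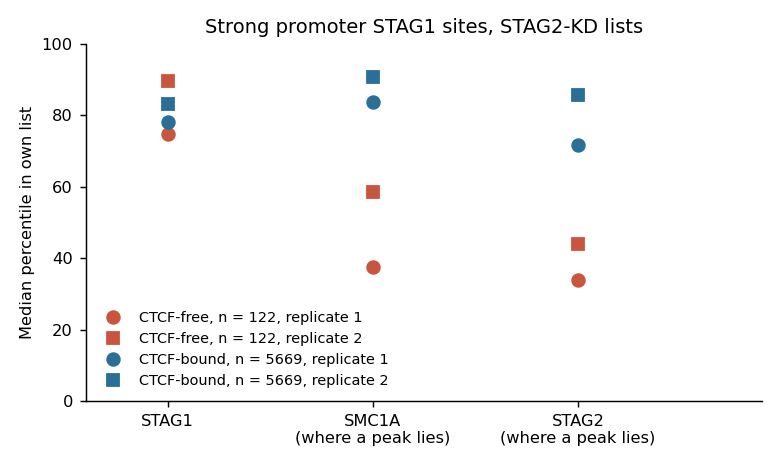
Median percentile in its own STAG2-KD list (y axis) of STAG1, and of SMC1A and STAG2 where they had a peak (x axis), at promoter STAG1 sites strong in both replicates, for 122 CTCF-free and 5669 CTCF-bound sites. The STAG1 points of the classes lie within 74.9 to 89.6, while SMC1A and STAG2 are at 33.9 to 58.7 at CTCF-free and 71.6 to 90.7 at CTCF-bound promoters.

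The CRE-type letters marked the same group. ACGTCA, on either strand within 100 bp of the STAG1 summit, was present at 114 of 208 strong CTCF-free promoter sites in replicate 1 (54.8%, 95% Wilson interval 48.0 to 61.4) and at 98 of 248 in replicate 2 (39.5%, 33.6 to 45.7). At strong CTCF-bound promoters the share was 3.74% and 4.60%, at all coding transcript starts 5.96%, and in windows 5 kb away 1.64% and 1.58%. The excess was limited to strong sites. At CTCF-free promoter sites outside the strongest 40% the share was 4.71% and 3.90%, and over all CTCF-free promoter sites 6.23% and 5.38%. Of the 122 sites found in both replicates, 76 held it around the replicate 1 summit. The full palindrome TGACGTCA was the leading 8-mer of the group in both replicates, within 50 bp of 19.2% and 12.1% of the summits. Over all CTCF-bound promoter sites, strong and weak together, it was at 0.468% and 0.537%. These 6-mers and 8-mers were found on the same sites, so their excess is a description. The intervals cover counting error only.

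A motif of ETS factors, CCGGAAG, was also frequent at these promoters. It was present at 24.5% and 18.95% of strong CTCF-free promoter sites, 4.38% and 4.80% of strong CTCF-bound promoter sites and 9.45% of all coding transcript starts. Over all CTCF-free promoter sites, strong or weak, the share was 6.93% and 5.96%, below that of all coding starts. A GC box, GGGCGGG, was present at 68 of 208 and 62 of 248, against 29.3% of all coding starts. The NRF1 motif GCGCATG and the CCAAT box CCAATCA were present at 8.65% and 3.63% and at 6.25% and 5.24%, against 3.45% and 4.43% of coding starts.

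Away from promoters, CTCF-free sites held AP-1 motifs. TGANTCA was within 100 bp of the summit at 22.9% and 20.4% of CTCF-free sites outside promoters, against 6.88% and 7.54% of CTCF-bound sites outside promoters and 6.09% and 6.12% of windows 5 kb away. At strong sites of this class the shares were 22.6% (12 of 53) and 32.5% (118 of 363). Without a CTCF peak in any of the 4 lists the share was 29.5% and 21.6%. SMC1A lay at 66.1% and 85.6% of the sites with an AP-1 motif and at 45.4% and 68.2% of those without. RUNX and SOX motifs, TGTGGTT and ACAAAGG, showed smaller excesses. TGTGGTT was at 8.84% and 8.35% of CTCF-free sites outside promoters against 4.57% and 4.63% of CTCF-bound ones, and ACAAAGG at 5.82% and 6.16% against 3.91% and 3.97%. The M-box CATGTGA, read by the melanocyte factor MITF, was at 5.68% and 5.46% against 3.03% and 3.21%. The TEAD motif GGAATGT was at 4.17% and 3.98% against 2.94% and 2.96%. The interferon-stimulated response motif was at 4.10% and 4.58% against 3.04% and 3.22%. Windows 5 kb away held TGTGGTT at 3.51% and 3.49%, ACAAAGG at 3.81% and 3.89% and CATGTGA at 3.23% and 3.21%. They held GGAATGT at 2.86% and 2.85%, and the interferon motif at 3.30% and 3.35%, above its share at CTCF-bound sites. The YY1 motif AAGATGG was lower at CTCF-free sites, at 3.75% and 3.44% against 4.97% and 4.91%, with 4.09% and 4.04% in windows 5 kb away. These letters can also lie within a match to the CTCF core, and the share of such cases was not tested. The E-box CACGTG was at 2.797% and 2.56% against 2.596% and 2.53%, and the ZNF143 motif ACTACAA at 2.14% and 2.19% against 2.09% and 2.07%. For ZNF143 both classes lay below the 2.65% and 2.71% of windows 5 kb away. A match is a string of letters in a window and not a measured site of the factor.

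**Figure D5:**
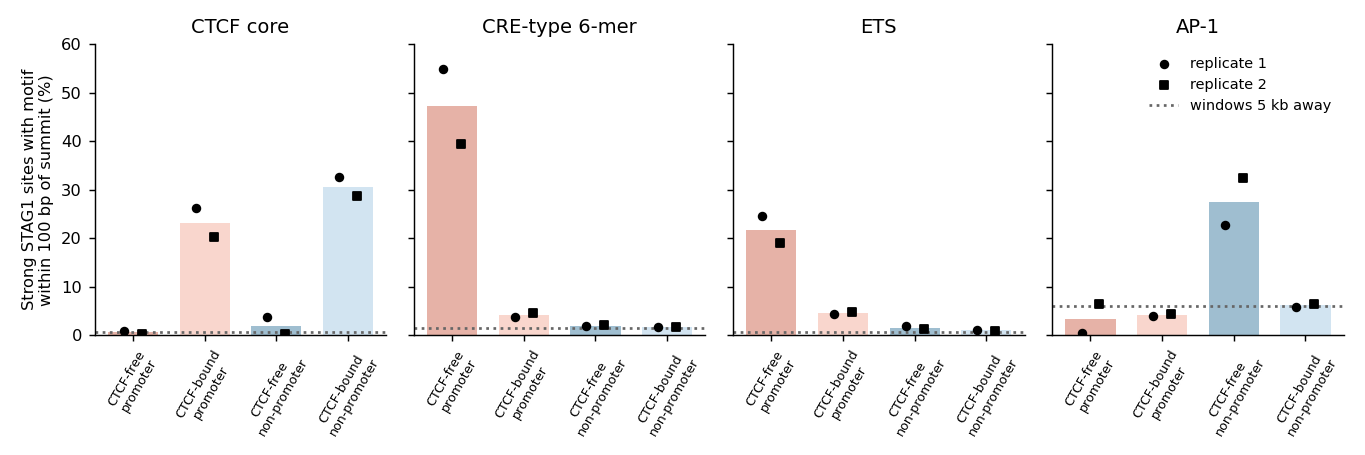
Share of strong STAG1 sites (y axis, %) with each motif within 100 bp of the summit, by class and place (x axis), with bars at the mean, 1 point per replicate and a dotted line at the share in windows 5 kb away. The CRE-type 6-mer reaches 54.8% and 39.5% at CTCF-free promoters, AP-1 reaches 22.6% and 32.5% at CTCF-free sites elsewhere, and the CTCF core is high only in the CTCF-bound groups.

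CTCF-free sites were more often absent from WT cells. Among all STAG1 sites, 31.7% in replicate 1 and 18.6% in replicate 2 had no STAG1 peak in WT. Among CTCF-free sites the shares were 69.7% and 46.0%, and among CTCF-bound sites 18.6% and 9.46%. The difference was 43.8 ± 10.2 percentage points (SD, n = 2), with the same direction in both replicates. Strength went along with it. Up to the 20th percentile the shares were 83.8% and 64.2% for CTCF-free and 75.2% and 46.3% for CTCF-bound sites, so the differences there were smaller. Above the 80th percentile every site of both classes had a WT peak. Only 9.60% and 13.7% of CTCF-free sites had a CTCF peak in WT cells. Presence is judged at the threshold of each list, so a site just under it counts as absent.

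The CTCF-bound share was lower in STAG2-KD than in WT cells in both replicates. It was 84.1% and 77.9% in WT, so it fell by 9.68 and 2.99 percentage points, a mean fall of 6.34 ± 4.73 (SD, n = 2). A two-sided exact permutation test returned p = 0.333, the smallest that 2 libraries against 2 allow, and the adjusted p over 3 comparisons was 0.5. CTCF-bound sites numbered 1.19 and 1.02 times their WT number and CTCF-free sites 2.17 and 1.21 times. With the strongest 50000 peaks of every list the difference reversed and became 1.67 and 0.900 percentage points higher in STAG2-KD. The full STAG1 lists were longer in STAG2-KD than in WT, where they held 63479 and 98437 sites. Against the STAG2 sites of the same cells, of which 83.2% and 70.7% were CTCF-bound, STAG1 was lower in replicate 1 and higher in replicate 2 (exact permutation p = 1, adjusted p = 1). Against SMC1A, with 64.0% and 54.0%, STAG1 was higher in both, by 15.6 ± 7.38 percentage points (SD, n = 2, exact permutation p = 0.333, adjusted p = 0.5).

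CTCF sites without STAG1 were weak sites of the CTCF lists. There were 25478 in replicate 1 and 37562 in replicate 2, with a median CTCF percentile of 21.4 and 23.3, against 64.0 and 65.8 for CTCF sites with STAG1. Of the strongest CTCF decile, 2 of 8858 and 6 of 11543 sites had no STAG1 peak. The core motif was within 100 bp of the CTCF summit at 12.7% and 9.58% of the sites without STAG1 and at 23.8% and 19.8% of those with it. At matched CTCF strength the order was the opposite in every band of 20 percentiles up to the 80th. Up to the 20th CTCF percentile, 9.57% and 6.04% of sites without STAG1 held the motif, against 5.63% and 2.84% of sites with STAG1. Between the 40th and 60th the shares were 18.7% and 14.6% against 15.9% and 10.1%, and between the 60th and 80th 28.1% and 20.7% against 27.0% and 19.9%. Above the 80th they were 35.0% and 33.3% against 39.7% and 37.5%. Few sites without STAG1 stood there, 18 in the ninth decile and 2 in the strongest in replicate 1, and 15 and 6 in replicate 2. The order in this top band is therefore not read. SMC1A was at 20.8% and 31.4% of the sites without STAG1. WT cells had CTCF at 66.1% and 72.1% of these sites and STAG1 at 4.97% and 12.03%.

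Of the 5 CTCF sites of highest rank without STAG1 in either replicate, 4 had LMBRD1, SLC29A2, GRIK5 or MPST as the nearest coding gene. The other lay 880227 bp from the nearest coding start, that of TMEM121, at the start of the immunoglobulin segment IGHVIII-38-1. The site at the promoter of LMBRD1, a gene of lysosomal vitamin B12 transport (chr6:70506493-70507296), had a CTCF percentile of 98.5 and 93.9 and a fold enrichment of 98.2 and 50.8. It had SMC1A peaks at the 66.1st and 80.5th percentile but no STAG1 peak in STAG2-KD cells and a weak one in WT replicate 2, at the 19.6th percentile. SLC29A2 encodes a nucleoside transporter, GRIK5 a glutamate receptor subunit and MPST a sulfurtransferase. At these 5 sites CTCF ranked between the 78.4th and 99.7th percentile, and SMC1A was present at 2 of them in replicate 1 and at all 5 in replicate 2.

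The loci that the study names held STAG1 sites of both classes, to be read against the 74.4% and 74.9% of all STAG1 sites that were CTCF-bound. Within 10 kb of the gene, IRF9, a subunit of the interferon-activated transcription factor, had a single STAG1 site in each replicate, CTCF-bound and at its promoter, at the 66.3rd and 72.7th percentile. CD274, which encodes PD-L1, had 2 sites in each replicate, both CTCF-bound. The strongest was not the same site in both replicates. It was chr9:5442194-5442907 in replicate 1, at the 79.4th percentile, and chr9:5450200-5451042 in replicate 2, at the 79.9th. ISG15, a ubiquitin-like interferon target, had 8 CTCF-bound sites and 1 CTCF-free site in replicate 1 and 7 CTCF-bound sites in replicate 2. DUSP6, the phosphatase gene that restrains ERK, had 3 CTCF-bound and 6 CTCF-free sites in replicate 1, and 3 and 4 in replicate 2. Its strongest site was CTCF-free in replicate 1, at the 48.7th percentile (chr12:89745076-89746756), and CTCF-bound in replicate 2, at the 62.4th (chr12:89745014-89748687). USP18, which removes ISG15 from proteins, had 1 site of each class in both replicates, but the CTCF-free site was not the same one. It was chr22:18650496-18650664, outside the promoter, in replicate 1 and chr22:18632557-18633055, at the promoter, in replicate 2. IRF7, a factor of interferon induction, had a weak CTCF-bound site at the 16.6th and 16.2nd percentile, and in replicate 2 also a CTCF-free one at the 2.27th. The STAG1 gene had 6 CTCF-bound and 2 CTCF-free sites in replicate 1 and 7 and 2 in replicate 2, and the STAG2 gene had 10 and 5, then 12 and 5. Their strongest sites were CTCF-bound, at the 96.8th and 99.7th percentile for STAG1 and the 95.1st and 96.5th for STAG2. For the STAG2 gene these were different sites, chrX:123093820-123094687 in replicate 1 and chrX:123540112-123541258 in replicate 2.

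Gene groups were then counted by their promoters. Of 20090 protein-coding genes, 42.2% had a CTCF-bound STAG1 site within 1 kb of a start in both replicates and 11.7% a CTCF-free one. A gene with several starts can have both. The clustered protocadherins, adhesion genes whose promoter choice uses CTCF, had a CTCF-bound site at 47 of 53 genes and a CTCF-free site at 1. PCDHGA12 was the strongest, at the 97.4th and 99.8th percentile. Neighbouring genes of this cluster can share a site. Of 15 cohesin genes, 10 had a CTCF-bound site and 1 a CTCF-free site, and their CTCF-bound sites had a median percentile of 89.2, against 61.4 over all genes. STAG1, PDS5A, PDS5B and STAG2 led them.

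Of the 25 genes of the dedifferentiated melanoma state, 20 had a CTCF-bound and 6 a CTCF-free site. THBS1, an extracellular matrix glycoprotein gene, stood at the 97.8th and 99.7th percentile and JUN at the 91.9th and 93.4th, both CTCF-bound. Of the 20 melanocyte genes, 12 had a CTCF-bound and 6 a CTCF-free site. RAB27A, which moves melanosomes, was CTCF-bound at the 98.7th and 99.4th percentile and TYRP1, a pigment enzyme gene, at the 92.8th and 91.6th. CTCF-free sites were at MITF, the lineage's master regulator, at the 17.8th and 46.9th percentile, and at SOX10, its activator, at the 21.9th and 41.4th.

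Of the 22 MAPK feedback and ERK target genes, 15 (68.2%) had a CTCF-bound and 9 (40.9%) a CTCF-free site, against 42.2% and 11.7% of all genes. The CTCF-free ones had a median percentile of 26.7, near the 26.9 over all genes, and included ETV1, SPRED2, SPRY1 and ETV4. MYC and EPHA4 were CTCF-bound above the 99th percentile in both replicates. Of 79 ribosomal protein genes, 38 (48.1%) had a CTCF-bound and 19 (24.1%) a CTCF-free site. RPL23 had a CTCF-free site at the 65.4th and 85.2nd percentile, and RPL31 at the 54.5th and 72.9th.

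Of the 45 type I interferon genes, 23 had a CTCF-bound and 9 a CTCF-free site. UBE2L6, ADAR and HERC5 were the strongest CTCF-bound ones, and DTX3L and PARP9, which share a promoter, the strongest CTCF-free ones, at the 44.3rd and 56.5th percentile. Of the 18 antigen presentation genes, 5 (27.8%) had a CTCF-bound and 2 (11.1%) a CTCF-free site, the latter near the share of all genes. At 9 (50.0%) of the 18 no STAG1 site lay at the promoter in either replicate, against 35.8% of all genes. Of the 39 HOX genes, 17 (43.6%) had a CTCF-bound and 4 (10.3%) a CTCF-free site, both near the shares of all genes. HOXA13 led the CTCF-bound HOX genes, at the 99.6th and 99.7th percentile. Of the 21 annotated imprinted genes, 11 (52.4%) had a CTCF-bound and 3 (14.3%) a CTCF-free site. Among these were GRB10 and CDKN1C, which had both.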

How the data were processed

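ChIP-seq peak lists of M14 cells were used, 1 list per library. According to its methods, the study mapped reads to hg19 by bowtie2, removed duplicates by samtools and picard, and called peaks by MACS2 with input as control. The labels of replicate 2 name BWA instead, and this was not resolved. The lists that the authors deposited hold a whole-number score, a fold enrichment (a ratio), a −log10 p-value and its −log10 q-value. The deposited score is the −log10 q-value (replicate 1) or p-value (replicate 2) times 10 and was not used. Replicate 1 lists hold only −log10 q-values of at least 2, replicate 2 lists only −log10 p-values of at least 2, so lists were compared within a replicate. No input list was used.

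Peaks off chromosomes 1 to 22 and X were left out, 3.93% to 4.76% of the STAG2-KD STAG1 and CTCF lists in replicate 1 and 0.234% to 0.298% in replicate 2. Depth was solved from fold and p-value under MACS2's Poisson model, assuming a genome of 2.7 Gb and fragments as long as the narrowest peak (120 and 150 bp); neither is stated. It is depth after MACS2 scaled ChIP and input. Places (promoter within 1000 bp of a start, then exon, intron, intergenic) came from GENCODE for hg19 by site midpoint, and motifs from the hg19 sequence within 100 bp of summits. Sites are not replicates, so values are given per replicate with the SD (n = 2) and no p over sites. The libraries were compared by two-sided exact permutation tests over samples. Overlap and motif functions were tested on simulated data. Python 3.11.15, pandas 2.3.3, scipy 1.17.1 and pysam 0.24.0 were used.

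Named sites were the 10 CTCF-bound and 10 CTCF-free STAG1 sites and the 5 CTCF sites without STAG1 with the lowest rank sum over both replicates and the same class in both, 8 loci of the study, and gene groups by counts with the strongest members as examples. Members and lists were chosen with earlier results of these data known. The strength limit of 40%, the 6-mer and 8-mers, and the strong sites outside promoters were chosen after the values were seen. Alternatives changed the overlap rule, peak threshold, list length, CTCF lists, promoter definition, motif and replicates.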

Additional observations from a re-analysis of the deposited data

Results flagged for a closer look

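STAG1 peaks of STAG2-KD cells outside chromosomes 1 to 22 and X entered no comparison. There were 3499 in replicate 1 and 245 in replicate 2, a signal in data that the report leaves out. Of these, 3024 (86.4%) and 204 (83.3%) overlapped a CTCF peak. With 2 samples per group, no group could be examined for samples that stand apart.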

How the results depend on the processing

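The CTCF lists rest on fewer reads than the STAG1 lists after scaling to input, and no depth-matched comparison was run. Some CTCF-free sites may thus have CTCF under the threshold. Percentages and percentage points below are means over replicates, and where a value moved the cause was not tested. The CTCF-bound share of STAG1 sites was 73.3% when 50% of the shorter peak had to overlap, 67.8% with summits within 150 bp, 78.9% when peaks within 500 bp also counted, 83.2% at −log10 q of at least 5, 83.6% over the strongest 50000 peaks and 82.3% with a CTCF peak in any of the 4 lists. The STAG1-bound share of CTCF sites became 63.5%, 73.5% and 83.1% by summits, by 500 bp and over 50000 peaks. The strength difference became 39.1, 43.7 and 39.4 percentile points by 500 bp, over 50000 peaks and with any of the 4 CTCF lists. The difference in promoter share between CTCF-free and CTCF-bound sites was 12.2 by summits and turned to −2.42 by 500 bp and −1.27 with any of the 4 lists, and it was −0.552 without replicate 1 and 8.55 without replicate 2. The difference in CTCF motif share was 23.4 over 50000 peaks, 22.4 with the other form of the motif and 16.3 within 50 bp. The SMC1A difference was 37.7 by summits and 53.4 over 50000 peaks. The difference in sites absent from WT was 31.3 over 50000 peaks. The STAG2-KD minus WT difference in CTCF-bound share reversed to 1.28 over 50000 peaks.

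Replicate numbers mark shared extraction and size selection per the labels. With the number as a replicate block, the mean STAG2-KD minus WT difference was −6.34 percentage points with an exact sign-flip p = 0.5, the smallest that 2 pairs allow. Leaving out either replicate gave a CTCF-bound share of 74.4% to 74.9%, and the other differences except that of promoters kept their direction.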
